A study of Homo sapiens with 6 samples.

Results

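The MiT/TFE transcription factors TFEB, TFE3 and MITF, the folliculin complex (FLCN, FNIP1, FNIP2) and the Rag GTPases (RRAGA, RRAGB, RRAGC, RRAGD) make up a nutrient-sensing module of the lysosome surface. These 10 genes were found by symbol among the 78304 genes of the expression table, each in 1 row. Transcripts were sequenced after poly(A) selection from Huh7, an established cell line from a human hepatocellular carcinoma, labelled as wild type. After 24 h of seeding, 3 libraries came from cells given the vehicle DMSO for 24 h and 3 from cells given 16'-DEC for 24 h; the compound is known here by this code alone, and no dose is labelled. The study concerned autophagy in liver cancer, and the comparison asked how transcripts of the module differed with the compound. Values are TPM, transcript abundances corrected for gene length and scaled to a fixed sum per library, so levels of different genes can be set side by side but no absolute depth is kept.

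Rag GTPases work as heterodimers, RagA or RagB joined to RagC or RagD, that sit on the Ragulator scaffold of the lysosome and bring the kinase complex mTORC1 there when amino acids are plentiful. Folliculin, joined to FNIP1 or FNIP2, acts on RagC and RagD to stimulate GTP hydrolysis, and the resulting dimer presents TFEB and TFE3 to mTORC1, whose phosphorylation keeps them in the cytosol. When this fails, as in starvation, the factors enter the nucleus and switch on lysosomal and autophagy genes, among them RRAGD itself. RNA levels, measured here, do not report where a protein is or whether it is phosphorylated.

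All 10 hepatocyte and hepatoma markers checked (ALB and AFP among them) were at 1 TPM or more in every library, with summed levels of 13636 to 14201 TPM in DMSO and 12067 to 12491 TPM with 16'-DEC. Single markers differed both ways: AFP was at 2721 ± 184 and 965 ± 120 TPM, APOB at 627 ± 111 and 196 ± 76.9 TPM, APOA1 at 729 ± 84.9 and 1203 ± 73.6 TPM and SERPINA1 at 2073 ± 132 and 2921 ± 42.4 TPM, in DMSO and with 16'-DEC. Of 10 markers of other cells, 2 were at 1 TPM or more in every library, CD68 and ACTA2, and the melanocyte enzyme TYR was listed at 0 throughout; their summed level was 32.1 to 34.7 TPM in DMSO and 47.4 to 57.8 TPM with 16'-DEC, mostly through CD68, which also encodes a lysosomal protein (16.8 ± 0.692 and 40.7 ± 4.93 TPM; mean ± SD, n = 3, as for all levels below). Their part in the results was not tested. In bulk RNA, fewer cells of a kind and less RNA per cell cannot be told apart. Whether the replicates came from separate cultures is not labelled; the p-values thus reflect only the spread among these libraries, which may be technical.

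Among the 9 members whose mean reached 1 TPM, which were tested, TFE3, RRAGA and RRAGD were higher with 16'-DEC, FNIP1, FNIP2 and RRAGB were lower, and TFEB, FLCN and RRAGC did not pass (limma on log2(TPM + 1), Benjamini-Hochberg adjustment over 14275 genes, threshold 0.05). MITF was too low to be tested. The 6 calls among 9 members, 66.7%, stood beside 71.5% of all tested genes (22.7% higher and 48.9% lower), so the share of members that moved was near the background. In 6 of the 9 tested members the libraries of the groups did not overlap, beside 75.3% of tested genes (24.3% higher, 51.0% lower); the untested MITF did not overlap either. The direction of weak changes depended on scaling: the median tested gene changed by -0.31, and by -0.00376 with median-of-ratios scaling over genes whose mean reached 1 TPM, 0.15 with the same scaling over every gene above 0 in all libraries, and 0.11 with quantile normalization. Each of the 3 scalings called 6 members higher and 3 lower. The background was then 74.8% of genes (37.3% higher, 37.5% lower) with the first, 76.0% (43.9% higher, 32.1% lower) with the next and 75.2% (42.0% higher, 33.3% lower) with quantile normalization. After a spline adjustment of each library for transcript GC content and length, 4 members were higher and 4 lower, beside 66.2% of genes called (34.5% higher, 31.7% lower). With library means kept in that adjustment, 2 members were higher and 5 lower, beside 71.3% of genes called (13.5% higher, 57.8% lower).

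**Figure D1:**
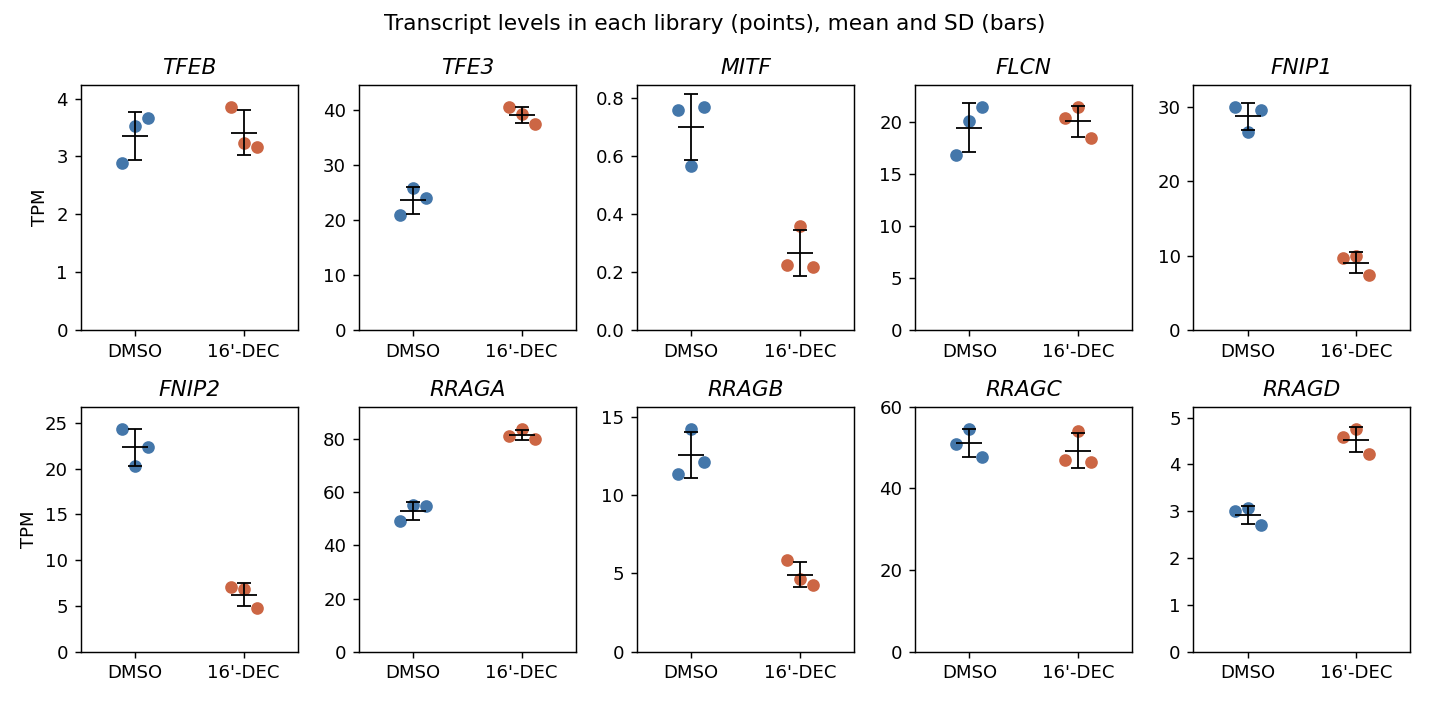
TPM of each of the 10 members in the 3 DMSO and 3 16'-DEC libraries (points), with the mean (horizontal line) and SD (error bar); each panel has its own axis from 0. The groups are apart in 7 panels and overlap for TFEB, FLCN and RRAGC.

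TFE3 was the dominant MiT/TFE transcript in these cells. Its levels were 20.9, 25.7 and 24.0 TPM in DMSO and 40.5, 39.2 and 37.4 TPM with 16'-DEC. Every treated library lay above every control, and the mean went from 23.5 ± 2.47 to 39.0 ± 1.52 TPM, a ratio of 1.66. TFE3 (ENSG00000068323, chromosome X, 49028726 to 49043486; GRCh38, GENCODE 29, as for all genes), a regulator of lysosome and autophagy genes closely related to TFEB, changed by 0.71 ± 0.0932 (log2 scale, ± SE, adjusted p = 0.000129, limma). After GC and length adjustment the change was 0.52, and with the same adjustment keeping library means it was 0.13 and did not pass (adjusted p = 0.108).

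TFEB, the factor after which the pathway is usually named, was far less abundant. It was listed at 2.88, 3.52 and 3.67 TPM in DMSO and at 3.85, 3.23 and 3.15 TPM with 16'-DEC. The groups overlapped, and the difference of 0.020 ± 0.123 did not pass (adjusted p = 0.891, limma; ENSG00000112561, chromosome 6, 41683978 to 41736259). Its direction followed the setting. TFEB passed as higher with the 3 scalings (0.29, 0.43 and 0.55) and as lower after GC and length adjustment (-0.29, adjusted p = 0.0204, and -0.67 with library means kept), so no direction can be given.

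MITF, the melanocyte and osteoclast member of the family, was near the lower limit of the table (ENSG00000187098, chromosome 3, 69739435 to 69968337). It was listed at 0.759, 0.566 and 0.767 TPM in DMSO and at 0.224, 0.357 and 0.217 TPM with 16'-DEC. All treated values were below all control values. Fitted with no filter on low values, where 30.2% of 39343 genes were called (7.60% higher, 22.6% lower), MITF changed by -0.42 ± 0.106 (adjusted p = 0.0274, limma), a size set largely by the pseudocount, since it was -1.13 with a pseudocount of 0.1. TFEC, the remaining paralog of the family, was listed at 0.006, 0.036 and 0.077 TPM in DMSO and at 0 in every treated library, too low for a comparison.

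Within the family, TFE3 made up 85.1%, 86.3% and 84.4% of the summed TFEB, TFE3 and MITF TPM in DMSO, and 90.9%, 91.6% and 91.7% with 16'-DEC. Such shares are taken inside a library and do not depend on its scaling. TFEB made up 12.2% ± 0.650 in DMSO and 7.98% ± 0.584 with 16'-DEC, and MITF 2.57% ± 0.611 and 0.623% ± 0.184. For each of these 3 shares the groups did not overlap. The summed level of the family went from 27.6 ± 2.75 to 42.7 ± 1.87 TPM, nearly all of it through TFE3.

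FLCN, the folliculin gene mutated in Birt-Hogg-Dubé syndrome, was listed at 16.9, 20.2 and 21.4 TPM in DMSO and at 20.4, 21.4 and 18.4 TPM with 16'-DEC. The groups overlapped, with means of 19.5 ± 2.36 and 20.1 ± 1.52 TPM. The difference of 0.045 ± 0.107 did not pass (adjusted p = 0.719, limma; ENSG00000154803, chromosome 17, 17212212 to 17237188). FLCN passed as higher with the 3 scalings (0.38, 0.55 and 0.48), was at -0.029 after GC and length adjustment, and passed as lower at -0.42 with library means kept. MPRIP overlaps FLCN over 5468 bases on the opposite strand and was at 34.9, 31.1 and 29.6 TPM in DMSO and at 31.0, 25.1 and 25.6 TPM with 16'-DEC; since no strand use is stated for the counting, reads of the overlap cannot be told apart. The other genes annotated across a member were listed at 0.283 TPM or less. Among them, AC055811.2 overlaps FLCN over 24974 bases on the same strand. On the same strand too, AC008695.1 overlaps FNIP1 over 155270 bases and AL139260.2 overlaps RRAGC over 20491 bases. How shared reads were counted is not stated, so the low values do not show that these members were unaffected.

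Both partners of folliculin fell. FNIP1, a scaffold that joins folliculin to the Rag GTPases and to AMPK, was at 30.0, 26.7 and 29.6 TPM in DMSO and at 9.73, 9.98 and 7.40 TPM with 16'-DEC. No treated library reached 10 TPM, and no control fell below 26.7 TPM. The mean went from 28.8 ± 1.81 to 9.04 ± 1.42 TPM, a change of -1.58 ± 0.118 (adjusted p = 3.74e-06, limma; ENSG00000217128, chromosome 5, 131641714 to 131797063), and -0.72 after GC and length adjustment.

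FNIP2, the paralog that takes the same place in the complex, was at 24.3, 20.2 and 22.3 TPM in DMSO and at 7.05, 6.88 and 4.75 TPM with 16'-DEC. On the deposited scale it had the largest change among the tested members, with means of 22.3 ± 2.04 and 6.23 ± 1.28 TPM. The change was -1.70 ± 0.141 (adjusted p = 7.12e-06, limma; ENSG00000052795, chromosome 4, 158769138 to 158908049), and -0.79 after GC and length adjustment, where RRAGD (1.5) and RRAGB (-0.91) changed more. With library means kept, RRAGB (-1.29) also changed more than FNIP2 (-1.18). Both FNIP genes passed as lower in every alternative run. The lowest treated library was replicate 3 for FNIP1 and for FNIP2.

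The FNIP genes fell nearly in step: FNIP2 made up 44.8%, 43.1% and 43.0% of their summed TPM in DMSO and 42.0%, 40.8% and 39.1% with 16'-DEC. These groups did not overlap, but they were 2.97 percentage points apart. Folliculin transcripts, whose groups overlapped, give a second scale. The ratio of summed FNIP1 and FNIP2 TPM to FLCN TPM was 3.22, 2.33 and 2.42 in DMSO and 0.823, 0.787 and 0.659 with 16'-DEC. As deposited, summed FNIP TPM thus exceeded FLCN TPM in every control and lay below it in every treated library. FNIP1 and FNIP2 have a GC content of 43.0% and 43.1%, and FLCN of 55.8%. Only the difference of the ratio is given after GC and length adjustment, so the crossing is not shown to hold there. The ratio was chosen after the values had been seen; its difference was -1.90 as deposited and -0.77 after GC and length adjustment.

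RRAGA, the main RagA/B gene here, is read from a transcript of 1 exon (ENSG00000155876, chromosome 9, 19049395 to 19050983). It was at 49.1, 55.2 and 54.8 TPM in DMSO and at 81.1, 83.8 and 80.2 TPM with 16'-DEC. All treated libraries were above all controls. RRAGA rose by 0.62 ± 0.0755 (adjusted p = 8.41e-05, limma), with means of 53.0 ± 3.43 and 81.7 ± 1.88 TPM. After GC and length adjustment the change was 0.56, and 0.18 with library means kept, where it still passed (adjusted p = 0.0311).

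RRAGB, which encodes the closely similar RagB, moved the other way. It was at 11.4, 14.2 and 12.1 TPM in DMSO and at 5.83, 4.66 and 4.28 TPM with 16'-DEC. All treated libraries were below all controls. RRAGB fell by 1.20 ± 0.128 on the log2 scale (adjusted p = 3.49e-05, limma; ENSG00000083750, chromosome X, 55717739 to 55758774), and by 0.91 after GC and length adjustment. Its share of the summed RRAGA and RRAGB TPM was 18.8%, 20.5% and 18.1% in DMSO and 6.71%, 5.27% and 5.07% with 16'-DEC. Reads from stretches that the paralogs share could be credited to either, so the levels carry that uncertainty, although the genes moved in opposite directions.

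RRAGC, which encodes the main RagC/D subunit, was at 51.0, 54.6 and 47.8 TPM in DMSO and at 47.0, 54.1 and 46.5 TPM with 16'-DEC. The groups overlapped almost fully. The difference of -0.055 ± 0.0893 did not pass (adjusted p = 0.597, limma; ENSG00000116954, chromosome 1, 38838198 to 38859823). RRAGC passed as higher with the 3 scalings (0.29, 0.46 and 0.20) and after GC and length adjustment (0.46), but not with library means kept (0.069, adjusted p = 0.425).

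RRAGD, the RagC/D gene that MiT/TFE factors are known to induce, was scarce but rose. It was at 3.01, 3.07 and 2.71 TPM in DMSO and at 4.58, 4.76 and 4.23 TPM with 16'-DEC. The groups did not overlap, and the mean went from 2.93 ± 0.193 to 4.52 ± 0.268 TPM. The change was 0.49 ± 0.105 (adjusted p = 0.00247, limma; ENSG00000025039, chromosome 6, 89364636 to 89412270), a scale that understates changes at such low levels. RRAGD made up 5.57%, 5.32% and 5.36% of the summed RRAGC and RRAGD TPM in DMSO and 8.88%, 8.08% and 8.35% with 16'-DEC, so RRAGC remained the major transcript in every library.

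Across the Rag heterodimer, the summed RRAGA and RRAGB level went from 65.6 ± 4.65 to 86.6 ± 2.00 TPM without overlap, while that of RRAGC and RRAGD was 54.0 ± 3.58 and 53.7 ± 4.47 TPM. The ratio of these sums was 1.12, 1.20 and 1.33 in DMSO and 1.68, 1.50 and 1.67 with 16'-DEC. This ratio too was chosen after the values had been seen. Its difference was 0.40 as deposited and turned to -0.16 after GC and length adjustment, so its direction depended on that step.

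**Figure D2:**
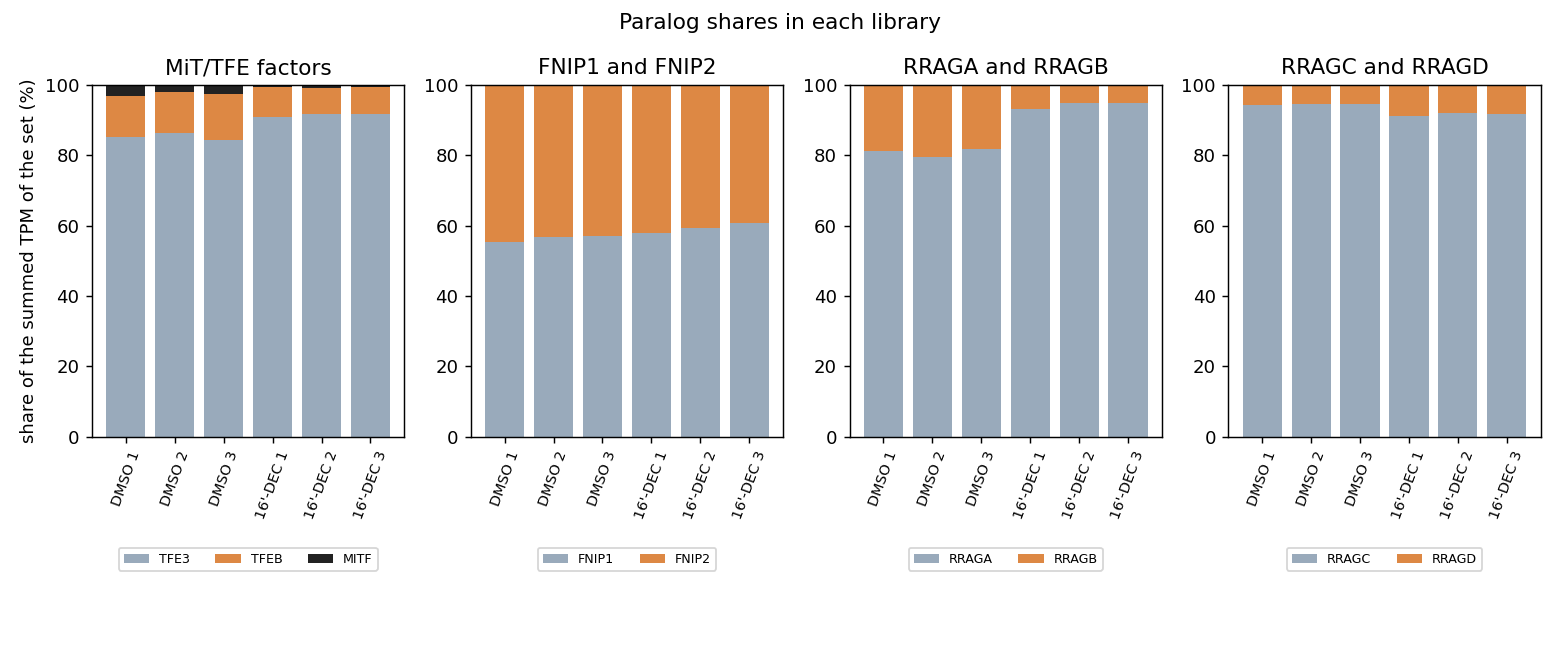
Stacked bars give, for each of the 6 libraries, the share (%) of each paralog in the summed TPM of its set. RRAGB falls from 18.1% or more of its pair to 6.71% or less, RRAGD and TFE3 take larger shares with 16'-DEC, and FNIP1 and FNIP2 keep similar shares.

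The order of the levels changed accordingly. In DMSO it was RRAGA, RRAGC, FNIP1, TFE3, FNIP2, FLCN, RRAGB, TFEB, RRAGD and MITF, from 53.0 to 0.697 TPM. The neighbours RRAGA and RRAGC, TFE3 and FNIP2, FNIP2 and FLCN, and TFEB and RRAGD had overlapping libraries. With 16'-DEC it was RRAGA, RRAGC, TFE3, FLCN, FNIP1, FNIP2, RRAGB, RRAGD, TFEB and MITF, from 81.7 to 0.266 TPM. There FNIP2 and RRAGB, and RRAGB and RRAGD, overlapped. By their deposited means, FNIP1 and FNIP2 went from above FLCN to below it and RRAGD from below TFEB to above it. FNIP2 and FLCN, and RRAGD and TFEB, however overlapped in DMSO. The order was taken from deposited values alone, across genes with a GC content from 41.4% (MITF) to 63.2% (TFEB). It was not taken after GC and length adjustment, so these changes of place are not shown to hold there.

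Changes over all genes followed the GC content of transcripts, and the members must be read beside it. Of 2775 tested genes with a GC content from 40% to 45%, 79.7% were lower and 5.30% higher, with a median change of -0.86. FNIP1 (GC content 43.0%) and FNIP2 (43.1%) lay below that median, and both kept a fall after the adjustment. RRAGC (44.9%) lay near 0 and RRAGD (42.1%) above 0, so RRAGD was among the 5.30% of its class called higher, and its change grew to 1.5 after GC and length adjustment (1.11 with library means kept). RRAGB (46.4%) fell in a class from 45% to 50% with a median of -0.33. RRAGA (52.2%), FLCN (55.8%), TFE3 (59.8%) and TFEB (63.2%) belonged to classes with medians of 0.034, 0.22, 0.22 and 0.27. RRAGA and TFE3 lay above their class medians, FLCN and TFEB below them.

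**Figure D3:**
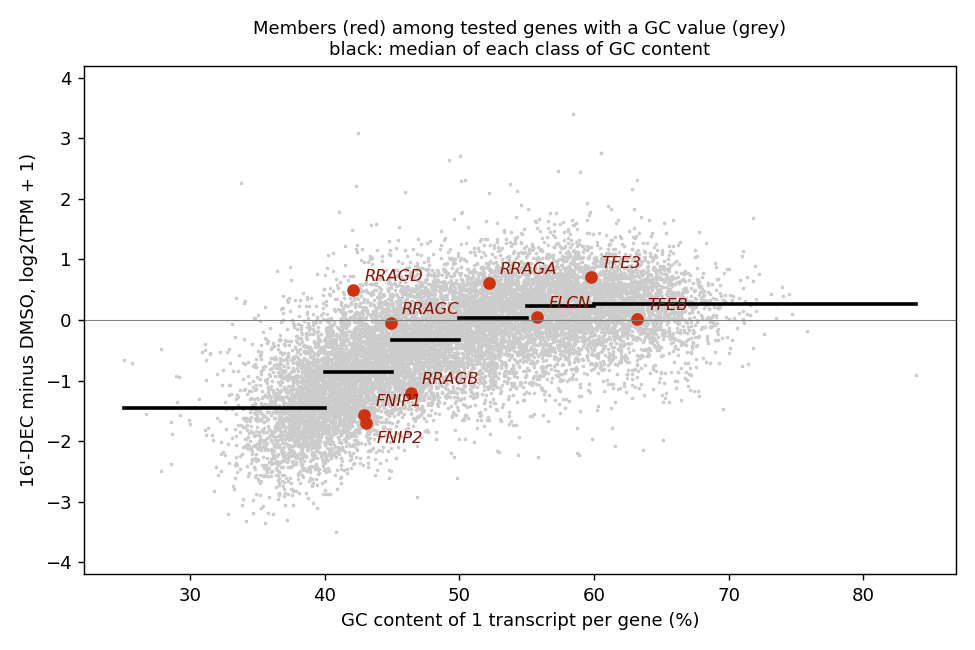
Change on the log2(TPM + 1) scale against transcript GC content (%) for tested genes (grey), the median of each GC class (black) and the 9 tested members (red). RRAGD lies well above its class median of -0.86, and FNIP1 and FNIP2 lie below it.

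**Figure D4:**
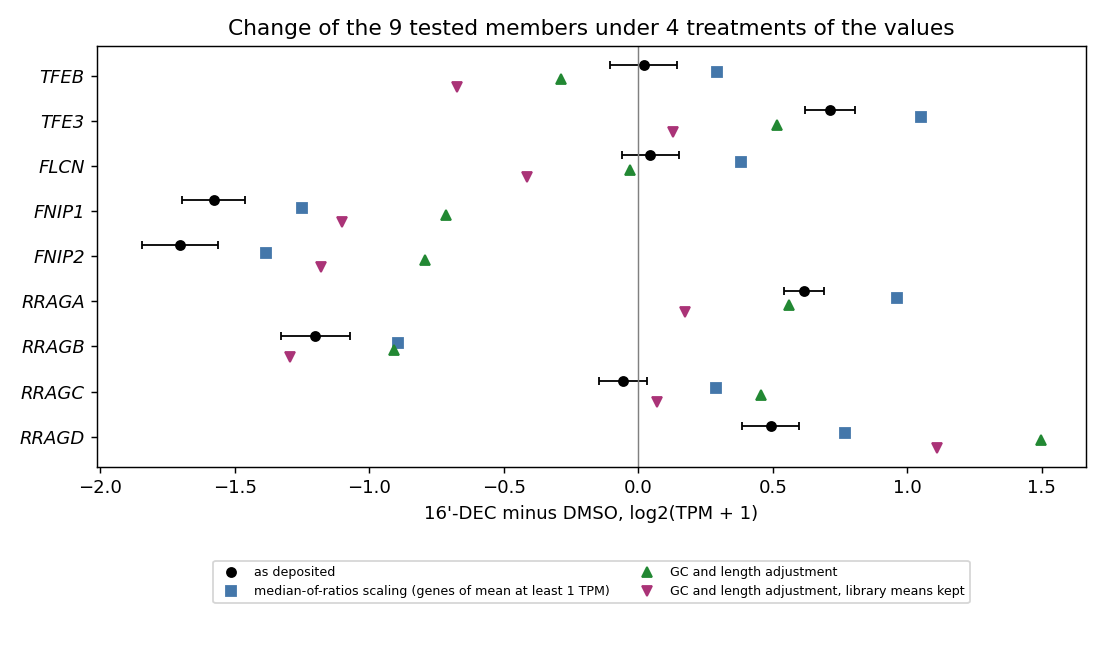
Change of each tested member (16'-DEC minus DMSO, log2 scale) as deposited (black, with SE) and under 3 other treatments of the values. FNIP1, FNIP2 and RRAGB stay below 0 and RRAGA, RRAGD and TFE3 above 0 in all 4, while TFEB, FLCN and RRAGC change sides.

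Upstream sequence was examined because MiT/TFE proteins bind E-boxes with the core CACGTG and several of these genes are known targets. RefSeq (GRCh38.p14) windows from 250 bases before to 50 after a start were matched by symbol for 8 members (13 windows); RRAGA and RRAGD were not matched. CACGTG, which reads the same on both strands, occurred in 3 of the 13 windows, those of FNIP1, RRAGB and RRAGC. It occurred in 7.26% of 35116 windows of all genes. FNIP1 held it at 175 and 94 bases before the start, RRAGB at 115 and 25 bases before and 7 after it, and RRAGC at 112 bases before it. At least 2 copies occurred in 0.664% of all windows and at least 3 in 0.094%. The bases before the first annotated exon are shown for the members with several copies; capitals mark CACGTG, and each is written 5′ to 3′ on the strand of the gene (FNIP1, chr5:131797064-131797267, minus strand; RRAGB, chrX:55717499-55717738, plus strand).
FNIP1: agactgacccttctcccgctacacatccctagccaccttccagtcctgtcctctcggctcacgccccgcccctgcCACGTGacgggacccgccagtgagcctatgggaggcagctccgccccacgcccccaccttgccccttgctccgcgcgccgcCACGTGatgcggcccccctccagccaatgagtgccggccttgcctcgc
RRAGB: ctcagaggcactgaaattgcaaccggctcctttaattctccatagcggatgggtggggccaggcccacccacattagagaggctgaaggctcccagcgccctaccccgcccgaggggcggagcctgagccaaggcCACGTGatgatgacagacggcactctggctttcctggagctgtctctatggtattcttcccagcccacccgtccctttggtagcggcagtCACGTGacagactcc
A match describes these letters and is no evidence of binding. Whether CACGTG bears on any change was not tested.

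Other genes of the nutrient-sensing pathway went both ways. Of 69 other genes in lists chosen from knowledge of the pathway, with earlier results of these data known, 66 were tested, 24 were higher and 21 lower, with a median change of -0.0031 against -0.31 for all tested genes. The called share was 68.2% (36.4% higher, 31.8% lower), near the 71.5% of all tested genes (22.7% higher, 48.9% lower). List counts below are to be read beside those shares, or in another setting beside the shares of all genes for it. The first median-of-ratios scaling above gave 37 higher and 17 lower, where 37.3% of all tested genes were higher and 37.5% lower. The scaling over every gene above 0 gave 43 and 15, where these shares were 43.9% and 32.1%. After GC and length adjustment 34 were higher and 18 lower, beside 34.5% and 31.7%. With library means kept in that adjustment 16 were higher and 30 lower, beside 13.5% and 57.8%. The median was then -0.15 against -0.37 for all tested genes.

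Ragulator, the scaffold that holds the Rag GTPases, had 4 of 5 subunits higher and 1 lower, but with GC and length adjustment keeping library means the same 4 lay from -0.11 to -0.019 and did not pass. LAMTOR4 rose from 47.4 ± 5.46 to 74.8 ± 3.03 TPM (0.65 ± 0.0958, adjusted p = 0.000261, limma). LAMTOR3 fell from 142 ± 11.2 to 41.8 ± 0.577 TPM (-1.74, and -0.28 after GC and length adjustment, at a GC content of 37.7%).

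Among GATOR1, the complex that switches RagA and RagB off, and its anchor KICSTOR, 2 of 7 genes were higher, 2 lower and 3 did not pass. NPRL2, a GATOR1 subunit, rose from 13.6 ± 1.07 to 20.8 ± 0.551 TPM, and ITFG2, of KICSTOR, fell from 5.97 ± 0.560 to 2.95 ± 0.631 TPM. NPRL2 was at -0.045 with library means kept (adjusted p = 0.605, limma), and ITFG2 missed the threshold with quantile normalization (-0.30, adjusted p = 0.0556). Among the 5 genes of GATOR2, which opposes GATOR1, SEC13 rose from 145 ± 10.5 to 286 ± 6.70 TPM and MIOS fell from 18.9 ± 0.377 to 7.91 ± 1.03 TPM (-1.16, and -0.23 after GC and length adjustment, at a GC content of 42.3%); in all 1 was higher, 2 were lower and 2 did not pass. SEC13 also serves the COPII coat and the nuclear pore. With the scaling over every gene above 0, 3 of the 7 GATOR1 and KICSTOR genes were higher and 1 lower. For the 5 GATOR2 genes it gave 3 higher and 2 lower. With library means kept, 5 of those 7 genes were lower, and of the 5 GATOR2 genes 1 was higher and 4 were lower.

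Among 8 amino acid sensors, 6 were tested, of which 4 were lower and 2 did not pass. SAMTOR, a sensor of S-adenosylmethionine, was at 8.80 ± 0.320 TPM in DMSO and at 1.97 ± 0.150 TPM with 16'-DEC, and fell by 1.72 ± 0.0993 on the log2 scale (adjusted p = 8.49e-07, limma), but at a GC content of 36.9% it was at -0.21 after GC and length adjustment. After that adjustment 1 sensor was higher and 3 were lower, and with library means kept 5 were lower. The scaling over every gene above 0 gave 2 sensors higher and 3 lower.

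Of 6 genes of mTORC1 and its activator RHEB, 2 rose, 2 fell and 2 missed the threshold. AKT1S1, which encodes the inhibitory subunit PRAS40, rose from 28.5 ± 2.99 to 42.5 ± 0.436 TPM, and DEPTOR, another inhibitor, fell from 2.86 ± 0.215 to 1.13 ± 0.0850 TPM. With the scaling over every gene above 0, 4 of these 6 genes were higher and 1 lower. With library means kept, AKT1S1 was at -0.0076 and did not pass, and 5 of the 6 were lower. Among 13 genes that act on where TFEB resides (calcineurin subunits, 14-3-3 proteins, kinases, the exporter XPO1 and the channel MCOLN1), 3 were higher, 5 lower and 5 did not pass. MAP4K3, a kinase that phosphorylates TFEB, fell from 94.0 ± 2.85 to 22.8 ± 2.64 TPM (-2.0, and -0.72 after GC and length adjustment), and YWHAH, a 14-3-3 protein, rose from 89.1 ± 4.23 to 114 ± 4.53 TPM (0.36, and -0.020 with library means kept, not passed). The scaling over every gene above 0 gave 8 higher and 5 lower in this list. After GC and length adjustment it had 10 higher and 3 lower, and with library means kept 4 higher and 3 lower.

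Among 3 genes of the C9orf72 complex, which resembles folliculin in structure, C9orf72 was lower as deposited (7.58 ± 0.162 to 5.13 ± 0.678 TPM, -0.49, adjusted p = 0.00295, limma), at -0.038 with the scaling over every gene above 0, and higher after GC and length adjustment (0.93). SMCR8 and WDR41 did not pass as deposited. WDR41 was at 0.25 (adjusted p = 0.0583, limma), without overlap of the groups. It passed as higher with the 3 scalings (0.60, 0.77 and 0.56), after GC and length adjustment (1.31) and with library means kept (0.93). SMCR8 was at 0.023, at 0.51 with the scaling over every gene above 0 (passed) and at -0.21 with library means kept (not passed). No direction can thus be given for C9orf72 or SMCR8, while WDR41 was above 0 in each of these settings.

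Of 22 genes known as targets of MiT/TFE factors, 13 were higher (59.1%), 4 lower (18.2%) and 5 missed the threshold. Of all tested genes 22.7% were higher and 48.9% lower. The median of the targets was 0.35 against -0.31 for all tested genes. With the scaling over every gene above 0, 18 were higher and 2 lower, with a median of 0.87 against 0.15. After GC and length adjustment 15 were higher and 4 lower, with a median of 0.38 against 0.020. With library means kept 9 were higher and 7 lower, with a median of -0.0026 against -0.37. CTSB, which encodes the lysosomal protease cathepsin B, rose from 542 ± 48.9 to 1373 ± 37.9 TPM (1.34 ± 0.0785, adjusted p = 9.08e-07, limma). PPARGC1A, a coactivator of mitochondrial and fatty acid oxidation genes, fell from 18.0 ± 1.83 to 4.01 ± 0.738 TPM (-1.93, and -0.71 after GC and length adjustment). GPNMB, often used as a readout of TFE3 activity and named here after its values were seen, fell from 5.47 ± 0.376 to 1.68 ± 0.177 TPM (a change of -1.27 ± 0.112 with an adjusted p = 1.04e-05 by limma, and of -0.75 with GC and length adjusted). Targets of the same factors therefore lay on both sides, with more of them higher than lower in each setting given here.

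**Figure D5:**
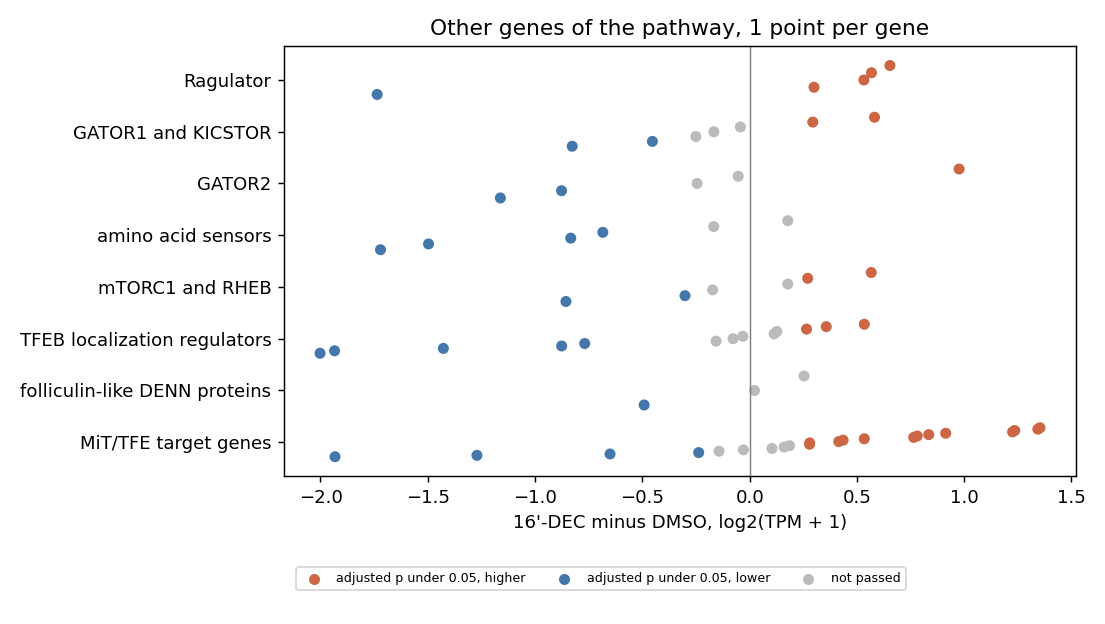
Change of each tested gene in 8 lists of the pathway (16'-DEC minus DMSO, log2 scale), 1 point per gene, colored by its call. LAMTOR3 lies apart from the other Ragulator subunits, and the target genes range from -1.93 for PPARGC1A to 1.35 for SQSTM1 (named as the highest, after its value was seen).

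The profile of FNIP2, the tested member with the largest change as deposited, was most like those of PURB, SLF2 and TAB2 (Pearson's r on log2(TPM + 1) over the 6 libraries, which share 1 contrast). All 3 fell, to mean ratios of 0.403, 0.264 and 0.526. Of 10191 genes compared, 1212 had an r over 0.99 with FNIP2, so likeness over these libraries does not set these 3 apart.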

How the data were processed

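The authors deposited 1 table of TPM values for 6 libraries, scaled to the same sum in each over 78304 genes; absolute depth cannot be recovered from TPM. Per the submitters' processing notes, the build was GRCh38 and the tools included HISAT2 2.0.1, HTSeq 0.6.1, DESeq2 and cutadapt 1.9.1, in no stated role or order; annotation and gene lengths: not given in the sources used here. Per the labels' protocols, RNA was poly(A)-selected, fragmented and randomly primed, with no strand marking described. The 14275 genes whose mean reached 1 TPM entered limma 3.58.1 (R 4.3.3) as log2(TPM + 1) (mean trend, 2-sided, Benjamini-Hochberg adjustment, threshold 0.05); the fit was tested on simulated data. Libraries correlated at 0.982 to 0.994 within groups and 0.898 to 0.922 between them. No pair shared more than 0.0692% identical values, so none was counted as a duplicate. GC content and length came from GENCODE 29 (1 transcript per gene, APPRIS principal first), present for 93.1% of tested genes, and were removed with natural splines (5 degrees of freedom each), which also re-centres libraries. Alternatives were pseudocounts, filters, scalings, no mean trend, a replicate block, a stricter threshold and leaving out each library. Members and lists were chosen with earlier results of these data known. Besides the members, the called gene of smallest adjusted p in each direction is named per list (the most abundant where none was called), with 3 genes most like the member of largest change. Plots used matplotlib 3.10.9 under Python 3.11.15.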

Additional observations from a re-analysis of the deposited data

How the results depend on the processing

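FNIP1, FNIP2, RRAGA and RRAGB kept their direction and passed in every alternative run. RRAGD did so in every run that tested it, but was left out by the filter at a mean of 5 TPM. TFE3 did so except with GC and length adjustment keeping library means, where it was at 0.13. That setting was chosen after seeing the data, as was the median-of-ratios scaling over genes whose mean reached 1 TPM. TFEB was at -0.29 after GC and length adjustment, alone or with the replicate block (adjusted p = 0.0526 with the block), at -0.67 keeping library means, and from -0.0606 to 0.0722 without 1 library. FLCN was at -0.0287, alone or with the block, at -0.42 keeping library means, and from -0.0500 to 0.115 without 1 library. RRAGC was at 0.46, 0.20 and 0.29 with median-of-ratios scaling, quantile normalization and the added scaling, at 0.46 after GC and length adjustment, alone or with the block, and at 0.0693 keeping library means. The cause was not tested.

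Members called higher were 6 instead of 3 with each of the 3 scalings, and members called lower were 5 instead of 3 with GC and length adjustment keeping library means. Genes called higher were 6226, 5992 and 5301 with the scalings and 1797 keeping library means; genes called lower were 4547 with median-of-ratios scaling, 4213 after GC and length adjustment and 3982 with the block added. Pathway genes called higher were 43, 39 and 37 with the scalings; keeping library means, 16 were higher and 30 lower, against 24 and 21 as deposited. The GC and length adjustment moved the FNIP2 share difference to -1.71, the RRAGB difference to -10.7 and the RRAGD difference to 6.41 percentage points, the ratio difference of FNIP to FLCN to -0.77 and that of RRAGA + RRAGB to RRAGC + RRAGD to -0.16. It could give no share for the MiT/TFE factors, since MITF was below the filter. MITF was at -1.13 and -0.11 with pseudocounts of 0.1 and 5.

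Same-numbered libraries did not deviate together (r from -0.18 to 0.0941), and no DMSO library correlated best with its own number. With the replicate block 3014 genes were higher and 6823 lower, with the same member counts of 3 and 3. Depth is unknown, and MITF, RRAGD and TFEB, at under 5 TPM, have the least support.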
